A study of Mus musculus with 2 samples.

Results

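The ephrin, Slit-Robo and netrin guidance genes are described here in ribosome-bound RNA of the adult mouse dentate gyrus. They were found by gene symbol alone: Eph receptors and ephrins, Slit1 to Slit3, Robo1 to Robo4, the secreted netrins Ntn1, Ntn3, Ntn4 and Ntn5, the netrin-Gs Ntng1 and Ntng2, the netrin receptors Dcc and Neo1, and Unc5a to Unc5d. The rule found 41 of the 32531 gene symbols, each with a line in both count tables. The rule itself uses no measured value. Both libraries came from untreated adult Lypd1-EGFP/Rpl10a mice of line OI82, in which the ribosomal protein Rpl10a carries an EGFP tag and the line takes its name from Lypd1. Polysomes bearing the tag were captured from homogenised dentate gyrus with anti-EGFP antibodies, a method called translating ribosome affinity purification (TRAP). There were 2 such pull-downs and no other group, and an unpurified input was not analysed here, so each value is a level in the captured RNA. How many animals stand behind each library, and whether they were pooled, is not stated in the labels, so differences between the libraries may be technical in part.

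These genes encode cues and receptors that steer growing axons and, in the adult brain, act at synapses. Ephrins sit on the cell surface, ephrin-As on a lipid anchor and ephrin-Bs as transmembrane proteins, and bind Eph receptor tyrosine kinases on the neighbouring cell. EphA receptors mainly bind ephrin-As and EphB receptors mainly ephrin-Bs, with EphA4 binding both classes. Slits are secreted and act through Robo receptors, mostly as repellents. Netrins are secreted and attract through DCC-type receptors or repel through UNC5 receptors, while the netrin-Gs are lipid-anchored relatives that bind other partners, the NGL proteins, at synapses.

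Depth was 31309643 counts on genes in replicate 1 and 32711412 in replicate 2. All 12 granule cell markers were detected, and their summed level was 4644 and 4639 counts per 1000000 counts on genes (CPM) in replicates 1 and 2, and their defining gene Prox1 stood at 1146 ± 65.5 CPM (SD, n = 2). Lypd1 was counted at 229 ± 49.9 CPM and Rpl10a, tagged and endogenous copies together, at 229 ± 42.1 CPM. The marker lists of other cells summed to less, from 3.16 and 3.64 CPM for microglia, with C1qa and C1qb at 0 counts. Endothelial markers summed to 24.8 and 22.0 CPM, and astrocyte markers to 485 and 542 CPM, of which Slc1a2 made up most. Detection in these lists ran from 0 of 8 markers for microglia to 9 of 10 for astrocytes and 6 of 6 for oligodendrocyte precursors. Over all gene lines 38.1% were detected. The marker lists differ in size. Their median gene stood at 32.6 CPM per kilobase of exon for granule cells and at 2.46 or less for the others.

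Most guidance genes were detected, and a few receptors and ligands carried most of the signal. Detection was set at 1 CPM or more in each of the libraries. Of the 41 genes, 31 were, against a background of 38.1% of all gene lines. Together the 41 took 1991 CPM of replicate 1 and 2177 CPM of replicate 2. A CPM grows with transcript length, so levels of different genes are compared here as CPM per kilobase of annotated exon. On that scale the 10 highest genes were, in order, Epha7, Epha4, Unc5a, Efnb3, Slit3, Slit1, Neo1, Epha6, Ntng1 and Ntng2. Every pathway had a member among them. Of the 40 pairs of neighbours in the full order, 29 overlapped between the 2 libraries, so most adjacent ranks are not distinct. Epha7 lay above Epha4, and Epha4 above Unc5a, without overlap, whereas Unc5a and Efnb3 overlapped.

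**Figure D1:**
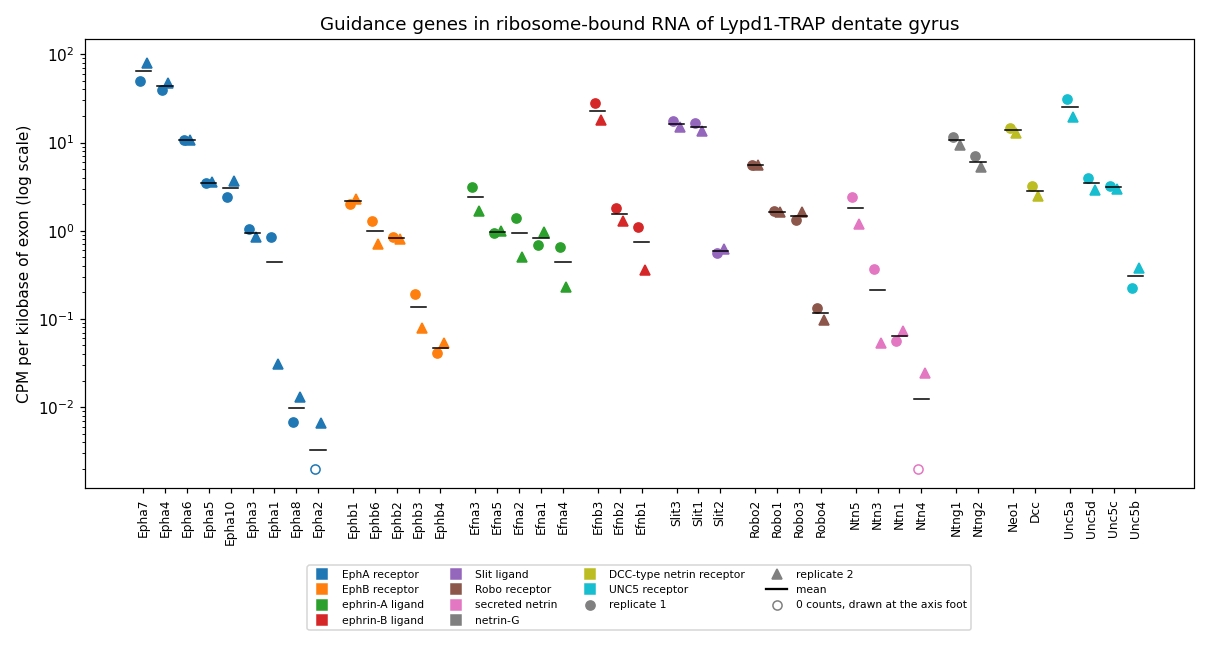
Level of each guidance gene in CPM per kilobase of exon (log axis), grouped by role, with circles for replicate 1, triangles for replicate 2 and a bar at the mean. Epha7 (65.3) and Epha4 (43.6) are the highest means, and 2 genes with 0 counts in replicate 1, Epha2 and Ntn4, are drawn as open symbols at the foot.

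The DNA before the start site is shown for 2 of the highest genes and for 2 genes at the floor of detection, since these mark the ends of the range. Each run holds the 250 bases before the start (RefSeq, GRCm38.p6, on the gene's own strand), with every CpG dinucleotide in capitals. Epha4 lies at chr1:77515089-77515338 (minus strand), Unc5a at chr13:54949161-54949410, Epha2 at chr4:141300971-141301220 and Ntn4 at chr10:93640799-93641048, the last 3 on the plus strand.
Epha4: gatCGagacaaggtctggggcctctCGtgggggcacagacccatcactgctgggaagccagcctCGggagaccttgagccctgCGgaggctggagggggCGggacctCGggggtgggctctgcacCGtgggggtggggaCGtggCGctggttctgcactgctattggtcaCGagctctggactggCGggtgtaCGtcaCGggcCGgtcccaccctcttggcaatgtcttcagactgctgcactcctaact
Unc5a: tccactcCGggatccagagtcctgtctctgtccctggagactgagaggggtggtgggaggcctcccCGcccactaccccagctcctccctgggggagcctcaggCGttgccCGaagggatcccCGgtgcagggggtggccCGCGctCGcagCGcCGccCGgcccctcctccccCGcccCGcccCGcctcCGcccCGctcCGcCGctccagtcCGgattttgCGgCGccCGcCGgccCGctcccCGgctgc
Epha2: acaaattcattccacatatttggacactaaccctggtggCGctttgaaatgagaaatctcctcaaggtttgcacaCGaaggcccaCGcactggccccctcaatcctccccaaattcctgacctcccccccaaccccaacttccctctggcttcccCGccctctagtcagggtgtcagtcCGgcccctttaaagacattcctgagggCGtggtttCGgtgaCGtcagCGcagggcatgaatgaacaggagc
Ntn4: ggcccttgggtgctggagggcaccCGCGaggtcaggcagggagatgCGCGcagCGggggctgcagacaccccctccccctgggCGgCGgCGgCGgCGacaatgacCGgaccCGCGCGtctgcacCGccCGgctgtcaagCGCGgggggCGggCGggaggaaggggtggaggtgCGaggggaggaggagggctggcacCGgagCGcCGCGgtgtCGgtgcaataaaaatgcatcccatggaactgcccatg
The Epha4 run holds 14 CpGs and that of Unc5a 25, while Epha2 has 9 and Ntn4, which was hardly counted, has 26. RefSeq promoters were matched for 36 of the 41 genes, with 41 start sites. Their median was 17 CpGs, against 6 over all 32851 promoters of that length. A GC box, GGGCGG on either strand, was found in 28 of the 41 start sites (68.3%) and in 32.7% of all promoters. The 9 genes that were not detected and had a promoter ranged from 2 to 46 CpGs, with 46 in Epha8. The median was 25 CpGs over the 9 start sites matched for 8 of the 10 highest genes, as Efnb3 and Slit1 had none. It was 11 over the 9 start sites of genes not detected. The medians differ while the ranges overlap (4 to 45 and 2 to 46).

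EphA receptors made up nearly all of the Eph receptor signal, and within them Epha7 and Epha4 led. Epha7 (chr4:28813131-28967499, plus strand) had 491 CPM in the first library and 799 CPM in the second, and Epha4 (chr1:77367185-77515088, minus strand) at 317 and 386 CPM. Both stood well up among all genes, at percentiles 96.5 and 93.9 of CPM per kilobase over the 14556 genes with a length and a count in both libraries. Together they took 79.5% of the summed Eph receptor level in replicate 1 and 85.0% in replicate 2. Epha4, whose product receives both ephrin classes, took 35.2% and 31.6%, and Epha7 44.4% and 53.4%. Epha7 was the higher of the pair in both libraries.

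The other EphA genes ranged over several orders of magnitude. Epha6 (57.0 and 56.0 CPM) and Epha5 (58.2 and 59.6 CPM), both receptors of brain neurons, had nearly the same CPM in each library. Per kilobase Epha6 stood at 10.7 ± 0.135 and Epha5 at 3.52 ± 0.0599, since the annotated exons of Epha5 cover 16739 bases. Epha10, which lacks an active kinase, was at 17.2 and 26.3 CPM and Epha3 at 9.20 and 7.31 CPM. Epha8 had 1 and 2 counts and Epha2, a receptor of epithelial cells, 0 and 1 count. Where nothing is counted, up to 3 counts are still possible (0.0958 CPM for replicate 1 and 0.0917 CPM for replicate 2, in counting error only), so both genes lie at or under the floor.

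EphB receptors were low as a class. Their summed level was 4.17 ± 0.297 CPM per kilobase against 128 ± 28.2 for the EphA receptors, a ratio of 24.6 in replicate 1 and 37.3 in replicate 2. Ephb1 (14.1 and 16.2 CPM) and Ephb2 (10.7 and 10.1 CPM), which partner NMDA receptors at synapses, were the most counted. Ephb2 differed less between libraries than Ephb1. Ephb6, which has no kinase activity, was at 4.82 and 2.66 CPM. Per kilobase Ephb6 averaged 0.992 ± 0.405 and Ephb2 0.828 ± 0.0326, with Ephb6 the higher in replicate 1 only. Ephb3 passed 1 CPM in replicate 1 alone (1.28 and 0.520 CPM). Ephb4, best known from veins, was at 0.192 and 0.245 CPM, from 6 and 8 counts.

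Among the ligands the class was reversed, with ephrin-B above ephrin-A, and 1 gene carried most of it. Efnb3 (chr11:69554092-69560205, minus strand) was counted at 89.2 CPM in the first library and at 57.4 CPM in the second. Its share of the summed ephrin level was 74.2% and 75.0%, so its make-up within the family hardly moved while its level differed. Efnb2 was at 12.3 and 8.77 CPM and Efnb1 at 3.83 and 1.25 CPM. The ephrin-B sum was 4.53 times the ephrin-A sum in replicate 1 and 4.52 times in replicate 2. Ephrin-A genes ranged from Efna3, at 7.67 and 4.04 CPM, to Efna4, at 1.05 and 0.367 CPM. Efna5 (3.80 and 4.005 CPM), Efna1 (1.25 and 1.77 CPM) and Efna2 (2.97 and 1.07 CPM) lay between them.

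Receptor and ligand sums within the same RNA therefore stood in opposite order in the A and B classes. EphA receptors exceeded ephrin-As by 15.8 times in replicate 1 and 33.9 times in replicate 2. EphB receptors were 0.142 and 0.201 times the ephrin-B sum. The order of each ratio was the same with the longest annotated transcript or the coding length in place of all exons, where the EphA ratio averaged 33.9 and 19.5 and the EphB ratio 0.219 and 0.127.

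**Figure D2:**
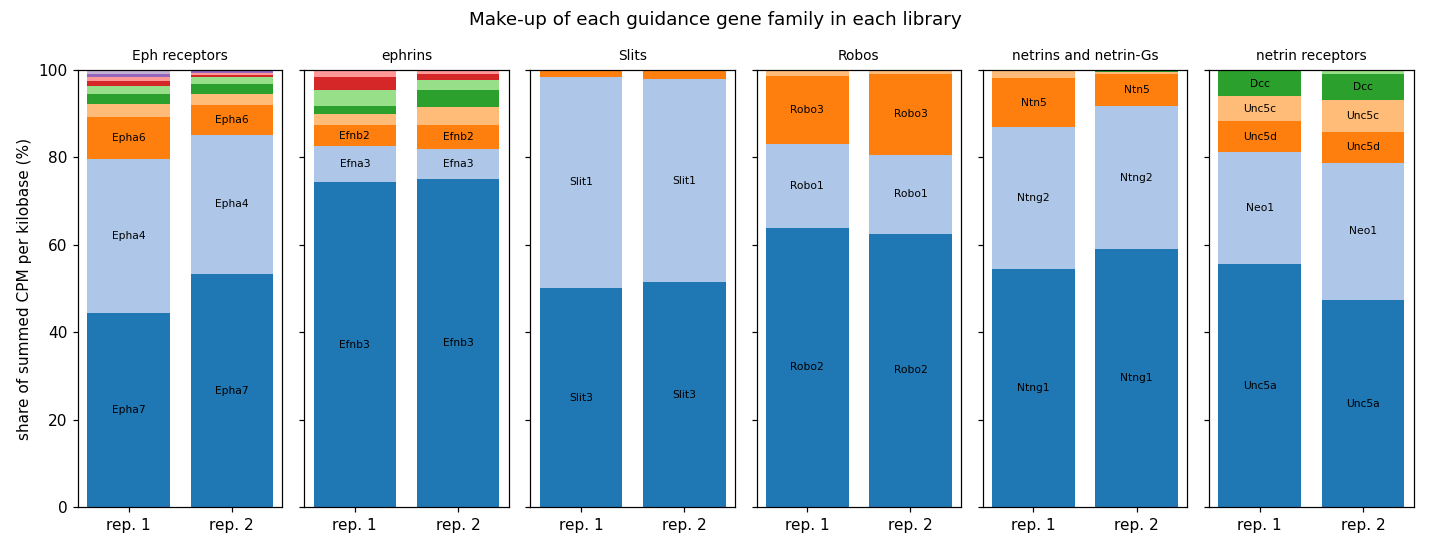
Share of each gene in the summed CPM per kilobase of its family (percent), 1 bar for each library and 1 panel for each family, with the smallest slices not labelled. Efnb3 fills 74.2% and 75.0% of the ephrin bars, and Epha7 and Epha4 together 79.5% and 85.0% of the Eph receptor bars.

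Slits were represented by Slit1 and Slit3, and their receptors chiefly by Robo2. Slit3 (chr11:35121224-35708507, plus strand) had 3324 counts in replicate 1 and 2944 in replicate 2, a mean of 98.1 ± 11.4 CPM (SD, n = 2), and Slit1 (chr19:41600257-41743665, minus strand) was at 99.8 and 79.3 CPM. Both ligands were the higher in replicate 1. Their levels per kilobase, 16.2 ± 1.88 and 15.1 ± 2.45, overlapped between libraries, with Slit3 the higher in each library. Slit2, the third ligand, was at 14.3 and 15.7 CPM. Robo2 (chr16:73891839-74411825, minus strand) was at 94.7 and 94.95 CPM, nearly the same in both libraries. It took 63.9% and 62.6% of the Robo level. Robo1 was at 27.6 and 26.6 CPM and Robo3, known for commissural axons, at 9.17 and 11.2 CPM. Robo4, a receptor of blood vessels, had 22 and 17 counts, a CPM under 1 in both libraries.

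The summed Robo level was 0.250 times the Slit level in replicate 1 and 0.310 times in replicate 2. This ratio depends on the length used, because the annotated exons of Robo1, Robo2 and Slit2 cover far more bases than any single transcript. It averaged 0.280 with all exons, 0.470 with the longest transcript and 0.663 with the coding length, and was below 1 in both libraries each time.

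Secreted netrins were low while their receptors were well counted. Ntn1, the founding netrin, had 11 and 15 counts, 0.351 and 0.459 CPM, and Ntn4 had 0 and 3 counts. Ntn3 reached 1.88 CPM in replicate 1 but 0.275 CPM in replicate 2. Ntn5, at 5.30 and 2.63 CPM, was the only secreted netrin detected, and 23.4% of its annotated exon overlaps that of Sec1 on the opposite strand. With no stated strand setting, it is not known how reads there were treated. They may have been counted for Ntn5 or for Sec1 (31 and 33 counts), or left out of both as ambiguous. The netrin-Gs were higher: Ntng1 (chr3:109780040-110144011, minus strand) was at 96.4 and 77.7 CPM and Ntng2 at 27.8 and 20.9 CPM. Together they held 86.9% and 91.6% of the summed netrin and netrin-G level. The netrin-G sum was 6.62 and 10.96 times that of the secreted netrins, a mean of 8.79 that became 11.99 with the longest transcript and 19.7 with the coding length.

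Of the netrin receptors Unc5a and Neo1 were the highest per kilobase. Unc5a (chr13:54949411-55006018, plus strand) stood at 131 CPM in the first library and 81.7 CPM in the second, and Neo1 (chr9:58874687-59036441, minus strand), which also binds repulsive guidance molecules, at 127 and 113 CPM. The Neo1 libraries lay closer together than those of Unc5a. Dcc, the classical attractive receptor, was at 42.2 and 33.0 CPM. Unc5c (62.2 and 57.2 CPM) and Unc5d (36.9 and 26.9 CPM) were near Dcc in CPM per kilobase of exon (3.12 ± 0.188, 3.46 ± 0.761 and 2.86 ± 0.491). With the coding length Unc5c stood apart from Dcc, at 20.95 against 8.67 CPM per kilobase. Unc5b was scarce at 1.41 and 2.38 CPM. The UNC5 sum was 2.19 times the DCC-type sum in replicate 1 and 1.68 times in replicate 2. Receptor sums exceeded those of secreted netrins by 20.2 and 30.9 times.

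Partner and signalling genes of each pathway were mostly detected too. Over all gene lines the share detected was 38.1%. Of 29 Eph and ephrin partners 26 were detected, the 4 highest per kilobase being Chn1 (323 ± 23.4 CPM per kilobase), Sdcbp (75.8 ± 17.0), Anks1b (59.4 ± 5.11) and Kalrn (52.8 ± 0.00507). Chn1 encodes chimaerin 1, a Rac inactivator that acts downstream of EphA4. Of 20 Slit and Robo partners 19 were detected, led by Cap2 (211 ± 0.512), Cap1 (96.9 ± 9.15), the Robo-binding GTPase regulator Srgap3 (79.2 ± 10.98) and Nell2 (64.6 ± 7.25), a ligand of Robo3. Of 24 netrin partners 20 were detected, led by Pak1 (135 ± 11.4), Maged1 (104 ± 7.06), Pitpna (103 ± 10.2) and Lrrc4c (50.9 ± 6.01). Lrrc4c and Lrrc4 (35.1 ± 3.73) encode the NGL partners of the netrin-Gs. Of 31 semaphorin, plexin and neuropilin genes 26 were detected, led by Sema5a (47.6 ± 2.66), Plxna4 (38.8 ± 6.11), Sema7a (16.7 ± 1.28) and Nrp1 (12.2 ± 4.15).

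The 2 libraries were then set against each other. With 1 library on each side there is no test: a ratio compares these libraries, its interval covers counting error only, and fewer cells of a type cannot be told apart from less RNA per cell. Ratios are log2 of replicate 2 over replicate 1 with TMM-scaled totals, over all 13089 genes whose CPM averaged 1 or more, 33 guidance genes among them. No guidance gene was at least 2-fold higher in replicate 2, where 4.51% of all genes were. In replicate 1, 4 of the 33 were at least 2-fold higher, against 5.75% of all genes. Of these 4, Epha1 (3.32 and 0.122 CPM) and Ntn3 (1.88 and 0.275 CPM) averaged 1 CPM or more only through replicate 1. Their place in the count rests on that library, so the count is not read as a result about the set. The median ratio was -0.15 for the guidance genes and -0.01 for all genes. Of the guidance genes 14 were above 0 and 19 below, and of all genes 6437 and 6652.

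All 4 genes past 2-fold had a low count. Epha1 had 104 counts in the first library and 4 in the second, or -4.12 on the log2 scale, with a 95% counting interval of -6.57 to -3.27. Its exons overlap 236 bases of Zyx on the opposite strand, which had 1206 and 991 counts. Ntn3, whose exons overlap 89 bases of Tbc1d24 on the same strand (3178 and 2557 counts), had 59 and 9 counts (-2.45, interval -3.88 to -1.66). Efnb1 had 120 and 41 counts (-1.48, interval -2.07 to -0.998) and Efna2 93 and 35 counts (-1.33, interval -1.99 to -0.81). Above a mean of 10 CPM, none of 22 guidance genes was 2-fold apart, where 2.18% of all genes were 2-fold higher in replicate 2 and 1.01% in replicate 1. Marker lists that also stood lower in replicate 2 were those of mural cells and fibroblasts (summed level 35.5 and 22.6 CPM, 5 of 6 members lower), CA pyramidal cells (266 and 172 CPM, 7 of 8 lower) mossy cells (60.1 and 36.4 CPM, 4 of 4 lower) and oligodendrocytes (196 and 162 CPM, 5 of 7 lower). Endothelial markers summed to 24.8 and 22.0 CPM, with 3 of 7 lower. Their part in these ratios was not tested.

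**Figure D3:**
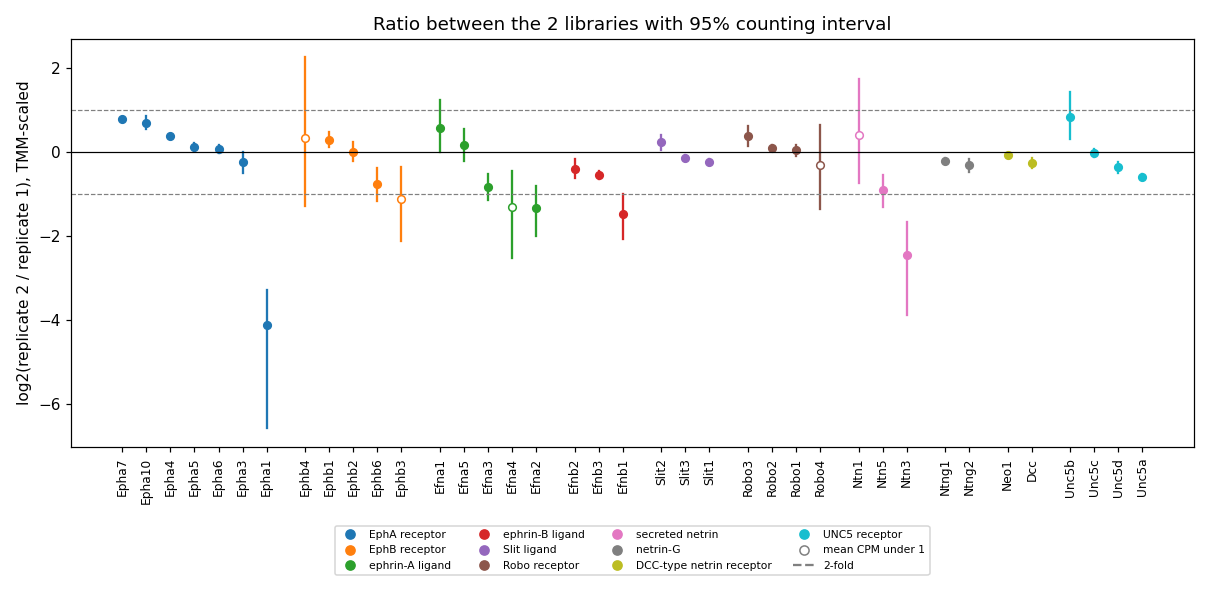
Log2 ratio of replicate 2 to replicate 1 (TMM-scaled) for the 38 guidance genes above the floor, grouped by role, with the 95% counting interval as a vertical line and dashed lines at 2-fold. Epha1 (-4.12) and Ntn3 (-2.45) lie lowest, and the ephrin-B genes are all below 0.

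No guidance gene above a mean of 10 CPM was 2-fold apart. A high count did not always go with a small ratio, as the value of Epha7 below shows. Of the 38 genes above the floor, the counting interval lay above 0 in 9 and below 0 in 19, against 33.3% and 33.5% of all 17334 genes above it. Epha7 was higher in replicate 2 with a log2 ratio of 0.80 (interval 0.77 to 0.82), as were Epha10 (0.70) and Epha4 (0.38). In contrast all 3 ephrin-B genes were lower in replicate 2, Efnb3 at -0.54, Efnb2 at -0.39 and Efnb1 as above. Efna3 was lower as well (-0.82), while Efna5 (0.17) and Efna1 (0.58) had intervals that reached below 0. The Eph receptor to ephrin ratio was accordingly 2.97 in replicate 1 and 6.31 in replicate 2. Summed granule cell markers had a TMM-scaled log2 ratio of 0.09 and Prox1 one of 0.21. Of the granule cell markers 8 were higher in replicate 2 and 4 lower. Without that scaling their sums were 4644 CPM in replicate 1 and 4639 CPM in replicate 2. Summed CPM was higher in replicate 2 for markers of astrocytes (485 and 542 CPM, 6 of 9 tested members higher) and GABA neurons (122 and 160 CPM, 3 of 6 higher). It was higher too for oligodendrocyte precursors (15.2 and 24.8 CPM, 4 of 6 higher) and newborn neurons (190 and 427 CPM, 1 of 4 higher). The 1 higher newborn neuron marker was Sox11 (63.3 and 312 CPM). The part of these cells in the ratios was not tested either.

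Of the other receptors and ligands, Ntn5 (-0.90), Ephb6 (-0.75), Unc5a (-0.59), Unc5d (-0.36), Ntng2 (-0.32), Dcc (-0.26), Slit1 (-0.24), Epha3 (-0.24), Ntng1 (-0.22), Slit3 (-0.15) and Neo1 (-0.08) were lower in replicate 2. Robo2 (0.10), Epha5 (0.13), Slit2 (0.23), Ephb1 (0.29), Robo3 (0.38) and Unc5b (0.83) were higher. With library totals alone Epha5 was at 0.03 and Robo2 at 0.0043, so these 2 differences rest on the scaling. Unc5c (-0.03), Robo1 (0.04), Ephb2 (0.01) and Epha6 (0.07) had intervals that spanned 0, and the last 3 changed sign when library totals alone set the scale, which moved the median of all genes to -0.10. The partner lists had medians of 0.11 for Eph signalling, 0.06 for Slit and Robo signalling, -0.09 for netrin signalling and -0.19 for semaphorins, plexins and neuropilins. With library totals alone the Slit and Robo value was -0.03, with 8 of its genes above 0 and 11 below. With TMM-scaled totals, 6437 of all 13089 genes were above 0 and 6652 below. Of 26 tested Eph partners 15 were above 0 and 11 below, and of 19 Slit and Robo partners 13 and 6. Of 20 netrin partners 8 were above 0 and 12 below, and of 27 semaphorin, plexin and neuropilin genes 9 and 18. In these lists 2 genes were at least 2-fold higher in replicate 2, Arhgef15 (1.36) and Sema3a (1.63), where 4.51% of all genes were, and Sema6c (-1.23) was in replicate 1, where 5.75% were. These 3 are named after their values were seen. Sema3a averaged 1 CPM or more only through replicate 2 (0.862 and 2.63 CPM).

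**Figure D4:**
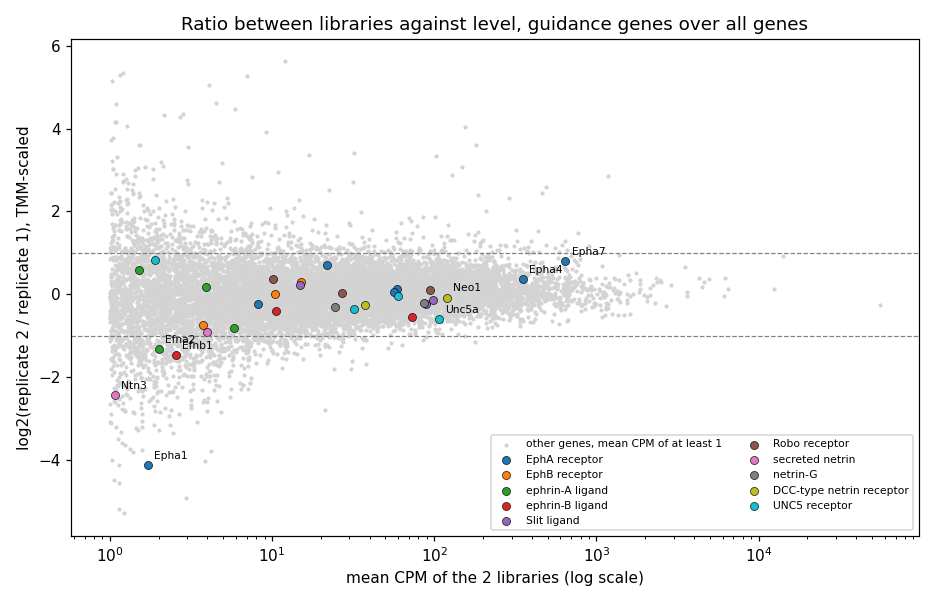
Log2 ratio of replicate 2 to replicate 1 (TMM-scaled) against mean CPM (log axis) for all 13089 genes whose mean CPM was 1 or more, in gray, and the 33 guidance genes among them in colour by role. The 4 guidance genes past 2-fold have a mean CPM under 3, and Epha7 and Epha4 lie between 0 and the upper 2-fold line.

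Base composition and length both varied with these ratios. Over the 33 guidance genes the GC content of the longest transcript and the log2 ratio had a Spearman correlation of -0.39, and over 11986 genes with a sequence it was -0.22. For transcript length the values were 0.39 and 0.13. The genes share both libraries and are not independent, so these are descriptions. Epha7 (41.7% GC) and Epha4 (45.6%) were on the lower side, and Efnb1 (58.2%), Efna2 (58.5%), Efnb3 (57.7%), Unc5a (62.7%) and Ntn3 (59.8%) on the higher side. Several genes did not follow this order: Epha10 (59.5%), Unc5b (58.7%) and Robo3 (57.7%) were higher in replicate 2, and Epha3 (41.9%), Dcc (44.3%) and Unc5d (44.3%) lower. The part of base composition and length in the ratios was not tested.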

How the data were processed

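The deposited values are raw counts per gene symbol, 1 table for each library. STAR 2.0.0e and HTSeq were used on build mm10, per the submitters' processing notes. Which annotation and which strand setting the counting used is not given in the sources used here. Summary lines of HTSeq, and 1 line with the name unknown, were dropped, and 65.0% and 64.9% of all counts were on gene lines.

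CPM, lengths and ratios were computed here with Python 3.11.15, edgeR 4.0.16 (TMM factors) and DESeq2 1.42.0 (size factors, as an alternative). The prior count of ratios was 2, and intervals are exact Clopper-Pearson at 95%. Exon lengths are unions over GENCODE M21 (GRCm38) and may differ from the models the authors counted on. All 41 guidance genes and 23155 symbols had a length. Annotated exons of another gene overlap 12 of the 41. Counting error is the limit of each interval, and no molecular identifiers are mentioned in the labels. The ratio and interval code was tested on simulated data.

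There is 1 group, so no conditions were tested and p-values are absent. The members and lists were chosen with earlier results of these data known, and within the chosen families genes were taken by symbol and not by value. Named genes are all 41, the 4 highest genes per kilobase of each partner list, any of those lists 2-fold apart at a mean CPM of at least 10, of which there was none, and Lypd1, Rpl10a and Prox1. Lrrc4 and the markers Slc1a2, Sox11, C1qa and C1qb were named after their values were seen. So were the overlapping genes and partner genes 2-fold apart at a lower level. Proteins were not analysed here.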

Additional observations from a re-analysis of the deposited data

How the results depend on the processing

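Shares within families moved with the gene length. For Epha4 and Epha7 among Eph receptors, every move from the value with all exons stayed within the SD of the 2 libraries. Their mean share was 82.3% with all exons, 81.0% with the longest transcript, 84.9% with the coding length and 84.5% with no length correction. With the longest transcript, the coding length and no length correction, the share of Efnb3 among ephrins was 72.5%, 67.9% and 73.0%, of Slit1 and Slit3 among Slits 95.8%, 92.6% and 92.5%, and of Robo2 among Robos 65.8%, 71.9% and 71.4%. The netrin-G share was 91.9% with the longest transcript, 94.9% with the coding length and 95.4% uncorrected, and that of Unc5a 46.6%, 36.2% and 29.4%. For the netrin-Gs and Unc5a, only the move with the longest transcript stayed within the SD of the 2 libraries. Of the 10 highest genes 8 were shared with the coding length and all 10 with the longest transcript. Detected guidance genes numbered 33 at 0.5 CPM and 23 at 5 CPM, against 31 at 1 CPM. Leaving out each library in turn gave 31 to 35 detected genes, a summed CPM of 1991 to 2177 and 9 to 10 shared top genes. It gave shares of 79.5% to 85.0% for Epha4 and Epha7, 74.2% to 75.0% for Efnb3, 97.9% to 98.4% for Slit1 and Slit3, 62.6% to 63.9% for Robo2, 86.9% to 91.6% for netrin-Gs and 47.4% to 55.5% for Unc5a. A total without Rn45s, Lars2 and Malat1 raised the summed CPM to 2250.3. At a mean CPM of at least 10 there were 0 guidance genes 2-fold higher in replicate 1 (1.01% of all genes), and with no such minimum 6 (11.8% of all genes), which added Ephb3 and Efna4. The count of 0 in replicate 2 held under every scaling, prior count and minimum tried. With no minimum, partner genes 2-fold apart went from 1 to 3 (Eph signalling), 0 to 1 (Slit and Robo) and 0 to 3 (netrin). Of all genes, 11.3% were then 2-fold higher in replicate 2 and 11.8% in replicate 1. The added partners were Vav2 and Grip2, Prrg4, and Trim67, Draxin and Adora2b. At a mean CPM of 10 the count went to 0 for Eph signalling and from 2 to 0 for semaphorins (all genes 2.18% and 1.01%). With library totals it went from 0 to 1 (Rgma) for netrin (all genes 3.66% and 6.85%). Semaphorin genes 2-fold apart went from 2 to 3 with library totals, DESeq2 size factors (all genes 4.58% and 5.67%) or no minimum. A ratio between libraries has no value with 1 library left out. No paired analysis was possible because there is 1 group.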
